A study of Mus musculus with 12 samples.

Results

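Gonadal males and gonadal females that share an XX chromosome complement were compared in neonatal thymus, so that the groups differed by the Sry transgene and the testes it brings, and not by a Y chromosome. The comparison used 7 of the 12 arrays of the series, chosen by genotype label: 4 arrays titled XXM (numbers 2, 5, 6 and 10) and 3 titled XXF (numbers 3, 7 and 11). All came from day 7 pups of the FCG model on a C57BL/6J background, in which gonads and sex chromosomes are inherited separately. XXM pups carried 2 X chromosomes and the autosomal Sry transgene and had testes, and XXF pups carried 2 X chromosomes without the transgene and had ovaries. The other 5 arrays, 2 of XYM and 3 of XYF, came from pups with 1 X chromosome and a Y chromosome from which Sry has been lost; XYM pups carried the same transgene. Transgene and testis go together in this design, so an effect of SRY within the thymus and an effect of testicular hormones cannot be told apart. The tissue was the epithelium and stroma that remained after thymocytes had been pressed out and washed away 5 times. The labels and methods do not tie an array to a single pup, and the p-values below therefore cover the spread between arrays only, which may be technical.

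SRY is a transcription factor of the SOX family with an HMG box that bends DNA. In the embryonic gonad it switches on Sox9 in Sertoli cell precursors and so starts the testis, whose Leydig cells then secrete testosterone, with a surge around birth. The thymus is built on epithelial cells of a cortex, which positively select thymocytes, and of a medulla, which displays tissue antigens under the control of Aire, together with fibroblasts, vessels, macrophages and dendritic cells.

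Signals are intensities of Affymetrix whole-transcript arrays as the authors deposited them, with no unit of their own. Differences are on the log2 scale, XXM minus XXF, from a limma fit with 4 genotype means. Sry itself, a check of the labels, had signals of 2524, 2561, 2836 and 2774 on XXM arrays 2, 5, 6 and 10 and of 431, 472 and 565 on XXF arrays 3, 7 and 11. Every XXM array thus lay above every XXF array, the lowest XXM signal being 4.47 times the highest XXF signal. The log2 difference was 2.46 ± 0.11 (SE), a ratio of 5.49 with a 95% confidence interval of 4.64 to 6.51, and its adjusted p in limma was 3.73e-06. The two-sided exact permutation test over the 35 groupings of 4 and 3 arrays gave p = 0.0571, the smallest it can give, so no single gene can reach 0.05 by that test. XXF pups have no Sry, so their signal of 431 to 565 is the background of this probe set and the ratio is not a ratio of transcripts. Xist, the RNA that coats the silent X chromosome, had signals from 8505 to 9884 on the 7 arrays. Eif2s3y, a Y-linked translation factor gene, had signals from 37.6 to 55.7 there against at least 12061 on the XY arrays.

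The sequence around the annotated Sry start is shown because this gene defines the groups; its capitals are the 50 bases from that start on. It is the RefSeq entry of the Y chromosome (GRCm38.p6, chrY:2663609-2663908, minus strand), and the base position of the transgene is not given in the sources used here.
Sry: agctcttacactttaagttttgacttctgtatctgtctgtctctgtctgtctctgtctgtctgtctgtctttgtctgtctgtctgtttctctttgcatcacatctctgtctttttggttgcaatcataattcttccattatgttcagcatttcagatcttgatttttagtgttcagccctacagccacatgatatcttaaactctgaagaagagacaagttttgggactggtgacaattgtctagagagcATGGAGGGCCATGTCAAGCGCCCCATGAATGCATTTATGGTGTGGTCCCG

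XXM arrays 6 and 10 stood apart from the other XX arrays by high signals of heart muscle genes. Myh6, the myosin heavy chain of atrial and adult mouse heart, had signals of 117, 136, 1590 and 9909 on XXM arrays 2, 5, 6 and 10 and of 126, 139 and 139 on the XXF arrays. Actc1, cardiac actin, had 225, 242, 3016 and 9407 against 238, 281 and 221. Tnnt2, cardiac troponin T, had 441, 484, 3422 and 10315 against 503, 453 and 575. These genes were bright on array 10, less so on array 6, and at the level of the XXF arrays on XXM arrays 2 and 5. Nppa, the atrial natriuretic peptide, was high on array 10 alone, at 10150.4 against 197 to 226 on the others. Of 24 heart muscle genes listed after these values had been seen, all 24 were highest on XXM array 10 and 21 had both arrays 6 and 10 above the other 5 XX arrays. Their summed signal was 17743 on array 6 and 72769 on array 10, against 5158 to 6017 on the other 5. Acta1, skeletal actin, peaked on array 6 instead, at 1623, with 332 to 586 elsewhere. Eln, the elastin of great vessels, reached 4568 and 4972 on arrays 6 and 10 against 804 to 1309 on the others.

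XXM array 10 also stood furthest from the rest. Across the autosomal genes, which are not independent replicates, its correlations with the other 6 XX arrays were 0.961 to 0.976, and those among the other 6 were at least 0.979. A second tissue moved the opposite way: genes of the mesothelium, the lining of the chest cavity, were high on XXF arrays 3 and 7. Upk3b, a uroplakin of mesothelial cells, had 803, 751 and 367 on XXF arrays 3, 7 and 11 against 282, 407, 363 and 451 on the XXM arrays. Of 12 mesothelium genes, also listed after the values had been seen, 10 had XXF arrays 3 and 7 above every XXM array, and 11 had XXF array 11 below both. XXF array 11 lay within the XXM range for Upk3b, and the summed signal of the 12 genes was 2629 to 3167 on XXM arrays and 2817 to 4672 on XXF arrays. The labels do not say how much tissue around the thymus each sample held. In such bulk samples fewer cells of a type and less RNA per cell cannot be told apart.

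**Figure D1:**
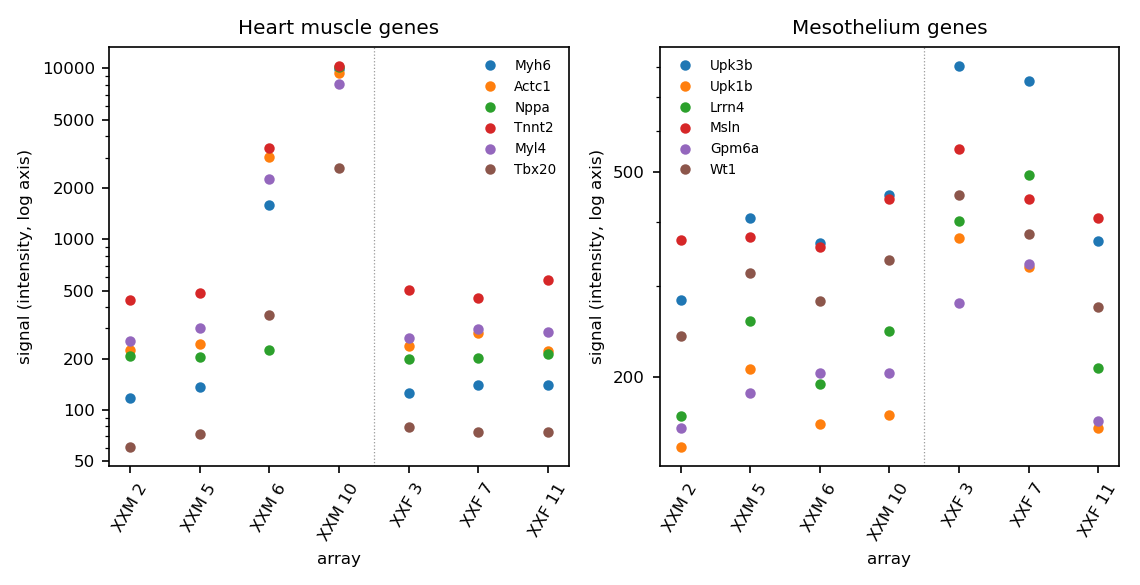
Signal (intensity, log axis) of 6 heart muscle genes, left, and 6 mesothelium genes, right, on each XXM and XXF array; each point is 1 array. Heart muscle genes are high on XXM arrays 6 and 10, Nppa on array 10 alone, and mesothelium genes are highest on XXF arrays 3 and 7.

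Markers of the labelled tissue were present on all 7 arrays. Foxn1, the master regulator of thymic epithelium, had signals from 1101 to 1427, Psmb11, the thymoproteasome subunit of cortical epithelium, from 1423 to 1575, and Aire from 868 to 1078. Thymocyte RNA was there as well despite the washing: Themis, a T lineage signalling protein, had 4791 to 5447. The files hold no detection call. As a reference, 95% of 1035 olfactory receptor probe sets, from genes mostly silent outside the nose, had a mean signal under 307.7, and 10944 of the 13917 autosomal genes counted here lay above it.

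The main comparison covered 13917 autosomal genes with a mean signal of 200 or more over the 7 arrays, each by its brightest probe set with 1 gene symbol. None of them differed between XXM and XXF after adjustment: 0 genes had an adjusted p under 0.05 in limma, the lowest adjusted p being 0.99988. Over all 35556 probe sets Sry was the 1 call, which is 0.00281% of those tested. At an unadjusted limma p under 0.05 there were 49 genes, of which 18 were higher in XXM (0.129% of those tested) and 31 lower (0.223%). These 49 are 0.352% of the genes, below the 5% that evenly spread p-values would place there, and the cause was not tested. No alternative run here gave an adjusted call: the count was 0 under all settings, among them array weights, a renewed quantile normalization, a fit without moderation and the 7 arrays alone.

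Differences were small for nearly every gene. The absolute log2 difference was under 0.1 for 12024 genes and had a median of 0.0406. The half-width of the 95% confidence interval had a median of 0.215, a factor of 1.16. For 7023 genes the whole interval lay within a factor of 1.2 in either direction and for 13700 within a factor of 1.5, and larger differences in those genes lie outside their intervals. The interval passed a factor of 2 for 56 genes, and 20 of these were on the heart or skeletal muscle lists. The heart muscle list was written after the values had been seen, so its part in this count is no separate result.

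Arrays 1 to 4, 5 to 8 and 9 to 12 each held both groups, and these array number sets served as a check; the labels do not say what the numbers mean. With the sets as a block, 280 genes had an unadjusted limma p under 0.05, 112 higher in XXM (0.805%) and 168 lower (1.21%), and again 0 passed adjustment, with a lowest adjusted p of 0.995. The difference had the same sign within all 3 sets for 2773 genes (19.9%), 1385 higher and 1388 lower. Without a test, the XXM and XXF arrays did not overlap for 67 genes with XXM above (0.481%) and 94 with XXM below (0.675%). Such genes have the same sign in every set by construction.

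By size alone, 108 genes were higher in XXM by a factor of 1.2 or more (0.776%) and 28 lower (0.201%). The list of higher genes followed 2 arrays. Its brightest array was XXM array 10 for 82 genes and XXM array 6 for 19. The 10 genes with the largest differences were all on the muscle lists, from Myh6 at a log2 difference of 2.39 to Actn2, a Z-disc protein, at 1.13. The heart muscle list, which held 9 of these 10, was written after the values had been seen, so that count is no separate result. Without XXM array 10 the higher genes numbered 48, and without arrays 6 and 10 they numbered 26, of which 6 were among the 108. Without both arrays the log2 difference of Myh6 was -0.091 and that of Actc1 -0.074. The lower genes changed less in number, to 36 without both arrays, with 12 shared. Of the 28, 7 were on the mesothelium list, led by Upk3b at -0.71, Lrrn4 at -0.70 and Upk1b at -0.66. The mesothelium list too was written after the values had been seen, so this count is no separate result.

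**Figure D2:**
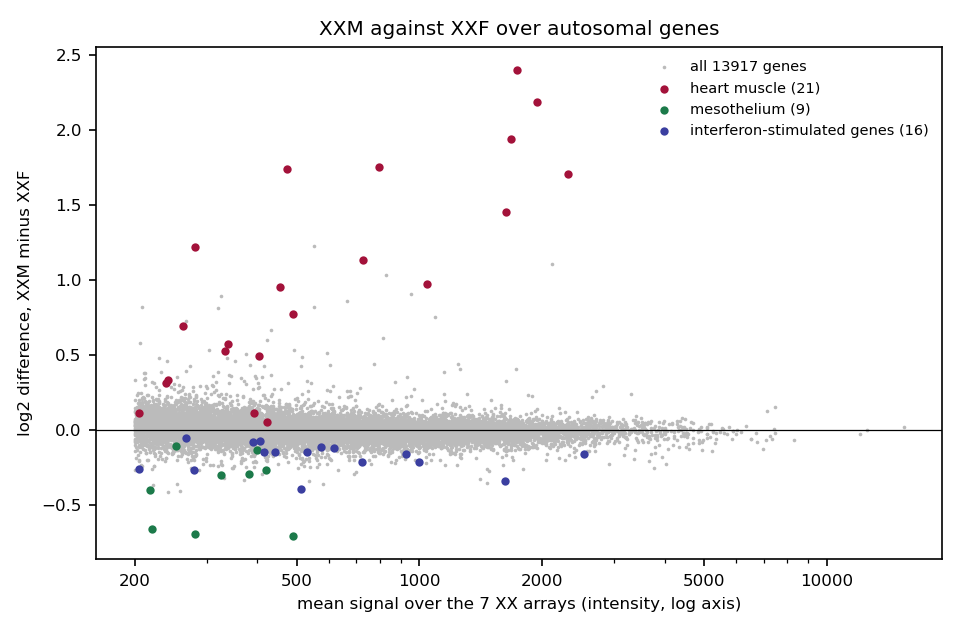
Log2 difference, XXM minus XXF, against mean signal (intensity, log axis) of the 13917 autosomal genes; each point is 1 gene, and 3 gene lists are coloured. Heart muscle genes reach 2.39 and mesothelium genes -0.71, and all 16 interferon-stimulated genes lie below 0.

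Ranked by unadjusted p, the first 12 genes higher in XXM had separate arrays in 10 cases, beside 0.481% of all genes. Ranking by p on the same arrays favours such genes, so the count is no separate result. The mean signals of the 12 genes were 200.1 to 665. Pink1, the kinase that marks damaged mitochondria for removal, had 813, 644, 741 and 667 on XXM arrays 2, 5, 6 and 10 and 617, 562 and 613 on the XXF arrays. All 4 XXM arrays lay above the XXF arrays by a small margin, a log2 difference of 0.26 ± 0.098 (SE) with an unadjusted limma p of 0.0237. Cep63, a centrosome protein, had 452, 475, 462 and 451 against 366, 424 and 396, also without overlap, at 0.22 ± 0.083 (SE) and an unadjusted limma p of 0.0219. Polr2k, a small subunit shared by RNA polymerases, had 243, 294, 276 and 283 against 221, 227 and 240.3 and a log2 difference of 0.25. Zfp202, a zinc finger protein, had 401, 433, 452 and 425 against 373, 385 and 366 and a log2 difference of 0.19. Igll1, part of the surrogate light chain of the pre-B cell receptor, had 254, 279, 299 and 289.9 against 222, 220.4 and 260.1, so XXM array 2 fell below XXF array 11. Pbp2, Plppr4, Efcab8 and Olfr330 had log2 differences of 0.21, 0.15, 0.22 and 0.33. Olfr330, an olfactory receptor, had a mean signal on XXM arrays of 219, below the reference of 307.7.

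The other 3 of these 12 were highest on array 10, where heart muscle genes were bright; the part of those arrays in their values was not tested. Akap6, an anchoring protein at the nuclear envelope of muscle cells, had 250.4, 256, 319.9 and 366 against 227, 222 and 225, highest on arrays 6 and 10. Its log2 difference of 0.39 ± 0.13 (SE), with an unadjusted limma p of 0.0105 that no other higher gene undercut, became 0.17 without those arrays. Pdlim3, an actin-associated protein of the Z-disc, had 326, 363, 576 and 839 against 347, 293 and 289, and its difference of 0.67 became 0.16. Stard10, a phospholipid transfer protein, had 387, 377, 412 and 509.6 against 357, 363 and 324, and 0.27 became 0.14. Srl, sarcalumenin of the muscle sarcoplasmic reticulum, had the largest mean difference among higher genes without overlap, 0.53, with 375 to 429 on XXM arrays 2, 5 and 6 and 1161 on array 10 alone. Without arrays 6 and 10 the differences of Pink1, Cep63 and Polr2k were 0.28, 0.23 and 0.22, and that of Plppr4 fell from 0.15 to 0.096.

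Of the 12 lower genes with the lowest unadjusted p, the arrays were separate for 9, beside 0.675% of all genes. Here too the ranking by p favours separate arrays. Mx2 and Ifit1, at unadjusted limma p of 0.0158 and 0.0238, rank among these 12 and are described with the interferon-stimulated genes. Not every lower gene named here and in the next paragraph is therefore among the 12. H60b, a ligand of the NKG2D receptor of NK and cytotoxic T cells, had the lowest unadjusted p of all genes counted. Its signals were 243, 217, 204 and 241 on the XXM arrays and 284, 292 and 325 on the XXF arrays, or 226 ± 18.7 (SD, n = 4) against 300.2 ± 21.4 (SD, n = 3). All XXM arrays lay below all XXF arrays, by -0.41 ± 0.096 (SE) on the log2 scale, with an unadjusted limma p of 0.00127 and an adjusted p of 0.99988. The array sets, in the order of their numbers, had differences of -0.23, -0.47 and -0.43, and without XXM arrays 6 and 10 it was -0.38. Its mean signals on both groups were below the reference of 307.7. Cd7, an immunoglobulin family protein on T and NK cells, had 321, 358, 308 and 299 against 377, 406 and 366, without overlap, and a log2 difference of -0.25 ± 0.09 (SE) with an unadjusted limma p of 0.0161.

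Pglyrp1, which binds bacterial peptidoglycan, had 299, 265, 256 and 277 against 321, 312 and 333, separate by a narrow gap. Tpt1, an abundant calcium-binding growth protein, was the brightest of the 12 lower genes with the lowest p, with 3905, 3816, 3613 and 3676 against 4630.2, 4353 and 4251 and no overlap. Its log2 difference was -0.23 ± 0.094 (SE), with an unadjusted limma p of 0.0306. Tmem126a, a mitochondrial membrane protein, had 559, 602, 530.0 and 517 against 618, 678 and 648. Retnla, a secreted product of alternatively activated macrophages, had 203, 194, 243 and 203 against 298, 239 and 306, where XXM array 6 and XXF array 7 overlapped, and a log2 difference of -0.41. Car4, a membrane-bound carbonic anhydrase, and Slfn1, a Schlafen gene of lymphocytes, were separate too, at -0.37 and -0.25. Gm4951, Gm4832 and AA467197 had log2 differences of -0.28, -0.24 and -0.26, the last with overlap. Without XXM arrays 6 and 10 the differences of Car4 and AA467197 shrank to -0.24 and -0.12, and that of Retnla was -0.50. Lrrn4, at -0.70, is a mesothelial gene with 401, 494 and 208 on the XXF arrays, where array 11 lay among the XXM arrays.

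**Figure D3:**
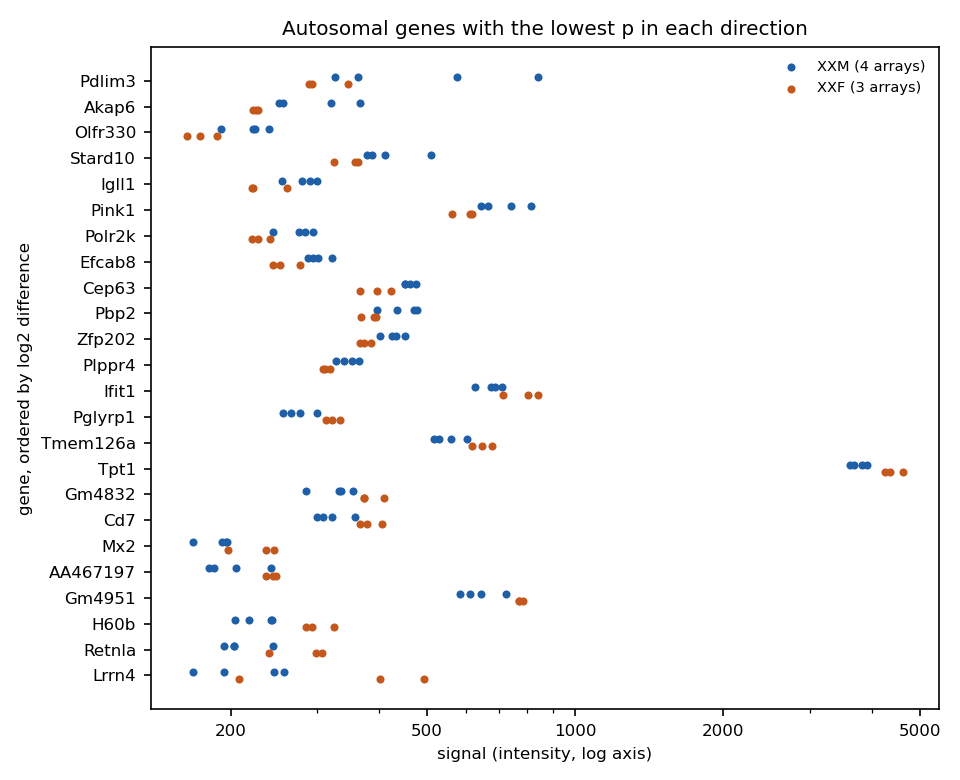
Signal (intensity, log axis) of 12 autosomal genes per direction, those of lowest unadjusted limma p; points are single arrays, 4 of XXM and 3 of XXF. The groups are separate for 10 of the 12 higher genes, not for Pdlim3, which spreads to 839, or Igll1, and for 9 of the 12 lower genes. Ranking by p on these same arrays favours separate groups.

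Interferon-stimulated genes are switched on when interferons bind their receptors, through response elements near the promoters, and thymic epithelium makes interferons without infection. Of 20 listed genes 16 were measured, and all 16 had log2 differences below 0, against 49.4% of the 13917 genes, with a median of -0.16 against 0.0009. The members share their control and are not independent, and 0 of them passed adjustment. At an unadjusted limma p under 0.05, 3 were lower, Mx2, Ifit1 and Cxcl9, beside 0.223% of all genes. Ifit1, an RNA-binding antiviral protein, had 710.4, 687, 673 and 626 on the XXM arrays and 842, 801 and 714 on the XXF arrays. The groups did not overlap, though XXM array 2 and XXF array 11 were close, and the log2 difference was -0.22 ± 0.084 (SE) with an unadjusted limma p of 0.0238. Mx2, a dynamin-like GTPase, had 197, 192, 168 and 196 against 245, 198 and 236 and -0.26 ± 0.093 (SE). Cxcl9, a chemokine for activated T cells, had 531, 537, 344 and 403 against 596, 661 and 511, overlapping, and -0.39 ± 0.18 (SE). Cxcl10, its neighbour in the same family, had 1759, 1762, 914 and 1455 against 2059.9, 1949.8 and 1466, with array 6 far below the others.

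Oasl2, a protein like oligoadenylate synthetases, was the brightest member, with 2581, 2374, 2264 and 2391 against 2974, 2589 and 2537 and a difference of -0.17. Ifit3, a partner of Ifit1, had 1038, 913, 879.6 and 904 against 1251, 1003 and 1006 and -0.21. In the array sets the median of the list was -0.17, -0.13 and -0.17, with 15, 15 and 16 of 16 genes below 0. With the sets as a block, 8 of the 16 were lower at an unadjusted limma p under 0.05, beside 1.21% of all genes, and 0 after adjustment. The size rested in part on a few arrays. The median was -0.10 without XXF array 3, with 0 genes at an unadjusted limma p under 0.05, and -0.067 without XXM arrays 6 and 10, where 15 of 16 stayed below 0, none had an unadjusted limma p under 0.05 and Cxcl10 had -0.037. The summed heart muscle signals of arrays 6 and 10 are given above.

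**Figure D4:**
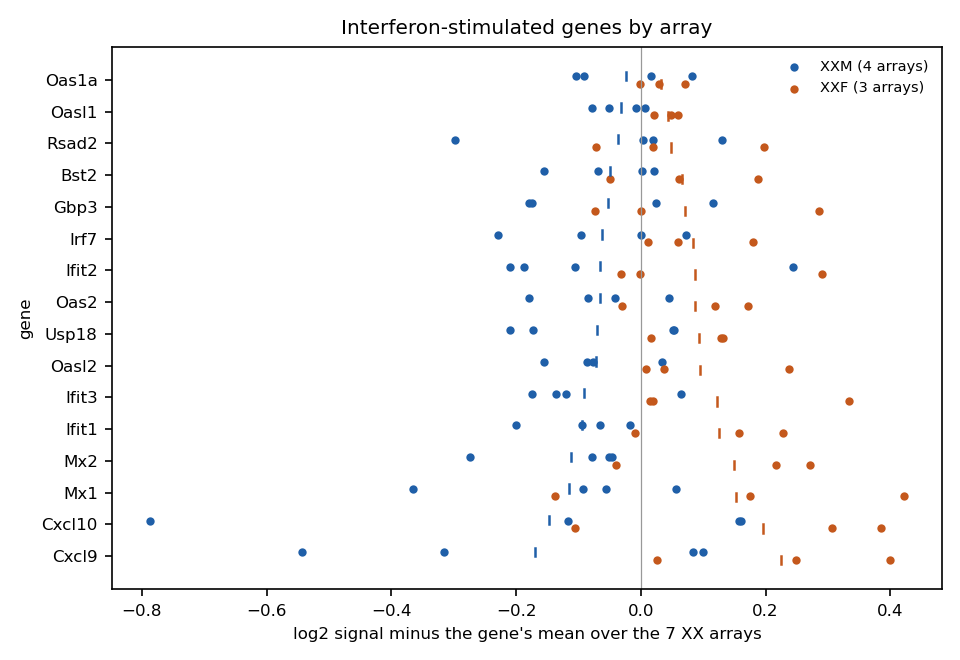
Log2 signal of the 16 interferon-stimulated genes minus each gene's mean over the 7 XX arrays; points are single arrays, blue for XXM and orange for XXF, and vertical ticks are group means. The XXM mean lies left of the XXF mean for all 16 genes, with overlapping arrays for all but 3. Over all genes, 0.675% were separate with XXM below, and the 16 genes are not independent.

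Promoters of 3 of these genes are shown because their windows hold the letters of the response element. The windows run from 250 bases before to 50 bases after the annotated start in RefSeq (GRCm38.p6), and 10966 of the 13917 genes matched one. The letters searched were GAAANNGAAA on both strands, the core of the interferon-stimulated response element. They occurred in 7 of the 12 list members with a window (58.3%) and in 2.95% of all windows. Ifit1 and Ifit3, on chromosome 19, and Cxcl10, on chromosome 5, were the members with a match and the lowest unadjusted p. Their capitals mark the matches, which read TTTC-N-N-TTTC on the shown strand for Ifit1 and Ifit3. A match is a description and not a site, and Mx2 had no window in the table.
Ifit1 (chr19:34640639-34640938, plus strand): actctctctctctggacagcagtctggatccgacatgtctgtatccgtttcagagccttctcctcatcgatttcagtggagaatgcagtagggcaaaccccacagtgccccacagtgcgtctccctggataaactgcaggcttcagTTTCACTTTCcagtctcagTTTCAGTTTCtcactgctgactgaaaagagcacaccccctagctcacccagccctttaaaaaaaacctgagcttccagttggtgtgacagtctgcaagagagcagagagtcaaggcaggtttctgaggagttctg
Ifit3 (chr19:34583279-34583578, plus strand): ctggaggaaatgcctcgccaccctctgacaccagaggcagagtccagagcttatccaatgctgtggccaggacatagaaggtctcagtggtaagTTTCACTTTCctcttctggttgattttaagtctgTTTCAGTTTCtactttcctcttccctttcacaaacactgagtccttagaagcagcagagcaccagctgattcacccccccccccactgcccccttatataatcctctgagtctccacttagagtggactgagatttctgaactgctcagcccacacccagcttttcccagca
Cxcl10 (chr5:92348840-92349139, minus strand): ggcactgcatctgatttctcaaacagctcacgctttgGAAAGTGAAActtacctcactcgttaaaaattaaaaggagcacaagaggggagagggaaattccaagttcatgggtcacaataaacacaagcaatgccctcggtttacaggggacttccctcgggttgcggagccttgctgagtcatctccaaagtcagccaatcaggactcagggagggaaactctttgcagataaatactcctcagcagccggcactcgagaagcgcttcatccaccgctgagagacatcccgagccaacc

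SOX proteins bind AACAAT and close variants. The letters AACAAT, on either strand, were found in 5.96% of all windows. They were found in 4 of the 55 windows of genes with XXM arrays above XXF arrays (7.27%) and in 6 of the 73 windows of genes with XXM arrays below (8.22%). None of the 12 windows of interferon-stimulated genes held them.

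The lists of thymic epithelium lay slightly below 0 and no counted member had an unadjusted limma p under 0.05. For cortical epithelium 14 of 15 genes were below 0 with a median of -0.07. Prss16, the thymus-specific serine protease, had 8150.4, 8929.5, 7719 and 7821 against 8779.5, 8510.4 and 8361, and Ccl25, the chemokine that draws progenitors in, had 7012, 7529, 6248 and 6055 against 8241, 6821 and 6953. The XXM and XXF arrays overlapped for both. Without XXM arrays 6 and 10 the median was 0.01, with 6 of 15 genes below 0. For medullary epithelium 13 of 14 genes were below 0 with a median of -0.041. Aire had 978, 988, 868 and 1070.5 against 1078, 924 and 1057, and Fezf2, the other regulator of tissue antigens, had 509, 490.3, 445 and 505 against 529.9, 502 and 504. The 10 counted tissue antigens that depend on Aire had a median of -0.038, with 2 above and 8 below 0. For MHC class II presentation 9 of 10 genes were below 0, at a median of -0.10, and the median without XXM arrays 6 and 10 was 0.0077. Cd74, the invariant chain, had 4917, 5428, 3961 and 4637 against 5749.8, 4759.8 and 5066.

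The NK and cytotoxic list had 8 counted genes with a median of -0.098, and its 2 counted members at an unadjusted limma p under 0.05 were H60b and Cd7, beside 0.352% of all genes. Klrd1, the NK receptor subunit CD94, lay below the signal limit, with 153, 143, 158 and 131 against 182, 183 and 177 and an unadjusted limma p of 0.0148. Neither H60b nor Cd7 is a cytotoxic effector: of those, Gzma, a granule protease, had 1091, 839, 1177 and 625 against 959, 1101 and 812, and Prf1, the pore protein perforin, had 207, 206, 214 and 224 against 203, 213 and 212, both with overlap. The NK receptor genes Klrb1c and Ncr1 were under the limit of 200 on all 7 arrays. The summed signal of all 14 measured members was 3303 to 4112 on XXM arrays and 3873 to 4268 on XXF arrays, and its part in the values of H60b and Cd7 was not tested. Thymocyte genes, 19 counted, had a median of -0.02, and mature T cell genes, 12 counted, -0.041. B cell genes, 9 counted, had 0.03, macrophage genes, 14 counted, -0.031, and dendritic cell genes, 14 counted, -0.023. None of these 5 lists held a counted gene at an unadjusted limma p under 0.05.

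All 14 endothelial genes were below 0 with a median of -0.082, though the arrays overlapped for 13 of them. Plvap, a protein of fenestrated endothelium, was the exception, with 529, 499.9, 437 and 467 against 634, 542 and 542. Over all genes, 0.675% were separate with XXM below. No endothelial gene had an unadjusted limma p under 0.05. The list's median was -0.26 within arrays 1 to 4 but -0.029 and -0.021 in the later sets. Fibroblast and matrix genes split by set as well, at -0.36, 0.068 and 0.45. Skeletal muscle genes had a median of 0.33 with 11 of 12 above 0, and 0.083 without XXM arrays 6 and 10. Their 1 gene at an unadjusted limma p under 0.05 was Ttn, the giant sarcomere protein that heart also makes, beside 0.129% of all genes. It had 226, 326, 666 and 1923 against 279.9, 227 and 211. Cell cycle genes had 21 of 23 below 0 at a median of -0.048, but 0.15 within arrays 1 to 4 against -0.15 and -0.11 in the later sets. Ribosomal protein genes had 16 of 19 below 0 at a median of -0.064 and no counted member at an unadjusted limma p under 0.05; without XXM arrays 6 and 10 the median was -0.0054, with 10 of 19 below 0.

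The other lists had medians that changed with the arrays used. Oxidative phosphorylation genes had 14 of 18 above 0 at a median of 0.038, heat shock and dissociation genes 16 of 18 below 0 at -0.043, and cholesterol synthesis genes 11 of 15 below 0 at -0.048. Without XXF array 11 the first median was -0.022, with 8 of 18 above 0. Heat shock genes had 12 of 18 below 0 at -0.0081 with the sets as a block, and cholesterol genes had 12 of 15 above 0 at 0.043 without XXM arrays 6 and 10 and 14 of 15 above 0 within arrays 1 to 4. Pericyte and smooth muscle genes had 0.083 over 11 genes, adipocyte genes 0.018 over 12, with -0.35, 0.22 and 0.095 in the array sets and all 12 below 0 at -0.13 without XXM arrays 6 and 10. The medians were -0.17, 0.12 and 0.12 in the sets for pericyte genes. Tuft cell genes had 0.023 over 8 and parathyroid and thyroid genes 0.033 over 8. Neuron and glia genes (5 counted), neutrophil and mast cell genes (4), erythroid genes (3) and chromatin partners of sex-linked paralogs (3) had 0.051, 0.035, -0.0029 and -0.022. No counted gene of these 11 lists had an unadjusted limma p under 0.05.

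**Figure D5:**
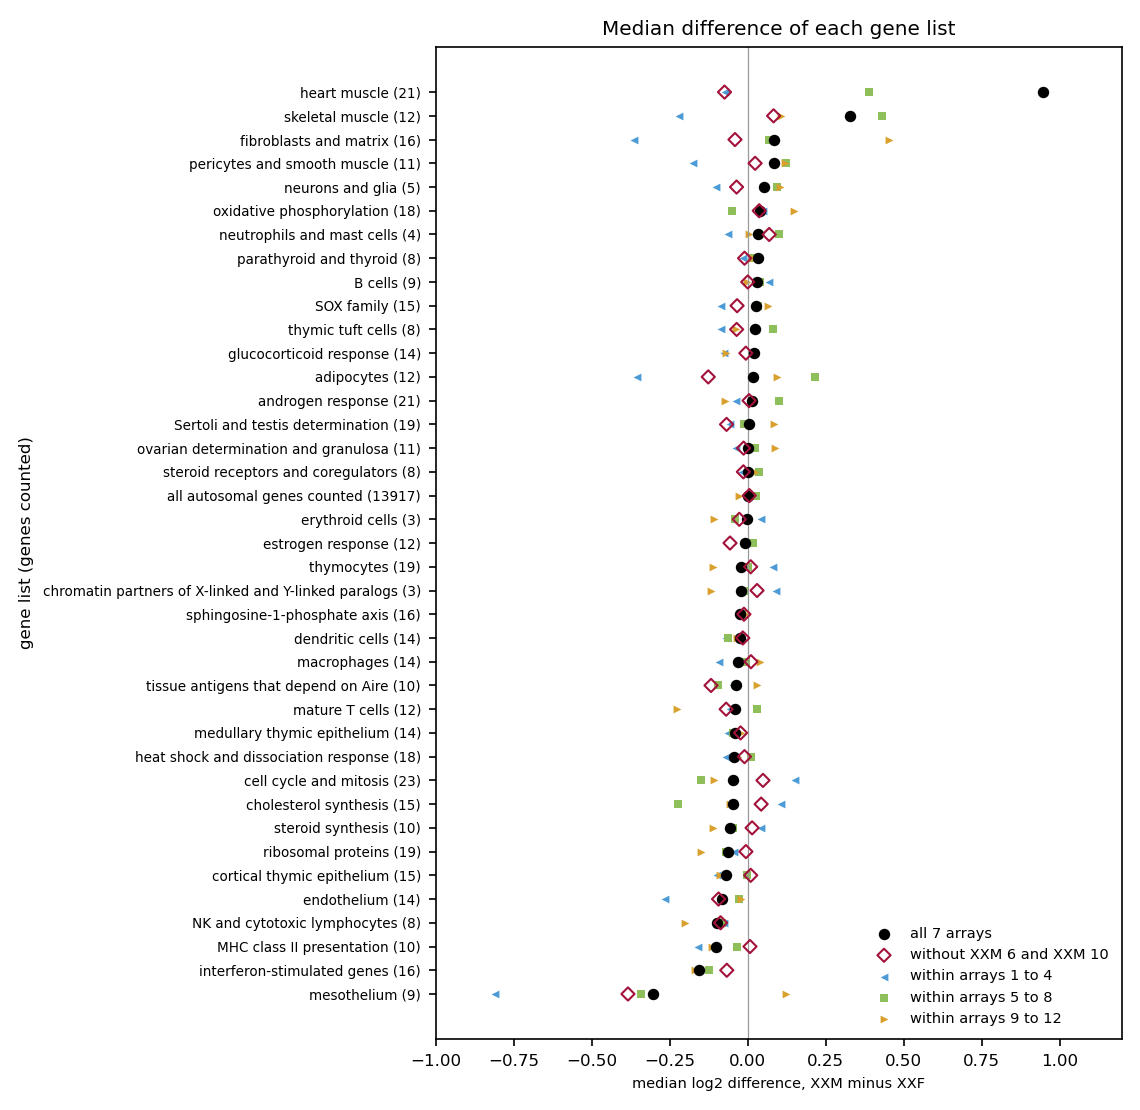
Median log2 difference, XXM minus XXF, over the counted genes of each list (number in brackets): all 7 arrays, without XXM arrays 6 and 10, and within each array number set. The heart muscle median within arrays 9 to 12 (3.01) lies beyond the axis; the interferon-stimulated genes lie below 0 in all 3 sets, while fibroblast genes run from -0.36 to 0.45.

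Genes that act with or after Sry in the gonad were examined next. Of the 29 listed genes of Sertoli cells and testis determination, 27 were measured and 19 counted, with 10 above and 9 below 0 and a median of 0.0032. Sox9, the direct target of SRY in the gonad, had 552, 574, 537 and 685 on XXM arrays and 639.8, 568 and 527 on XXF arrays, with overlap, a ratio whose 95% confidence interval ran from 0.870 to 1.18. Amh, the Sertoli hormone that removes the Müllerian duct, was under the limit of 200 by mean signal, with 158, 169.6, 156 and 204 against 150.4, 203 and 209.7. Wt1, which mesothelium also expresses, had -0.30, the lowest of the counted genes, and its XXM and XXF arrays overlapped. Cbx2, a Polycomb protein needed for testis formation, was the 1 counted member without overlap, with 769, 783, 741 and 787 against 806, 794 and 852. The gap was narrow, and 0.675% of all genes were separate with XXM below. The 15 counted genes of the SOX family had a median of 0.028. The 11 counted genes of ovarian determination and granulosa cells had 0.0028, among them Wnt4 with 784, 964, 784 and 803 against 866, 859 and 749.9. No counted gene of these 3 lists had an unadjusted limma p under 0.05 with all 7 arrays. Without XXF array 11, 1 Sertoli list gene did, beside 56 of all 13917 genes. Without XXM array 10, 1 SOX gene did, beside 37 of all 13917. Below the signal limit, Bmp2 of the ovarian list had 145, 137, 131 and 132 against 164, 175 and 141 and an unadjusted limma p of 0.0323, and Cst9 of the Sertoli list had 92.2, 104, 122 and 119 against 84.4, 79.0 and 105 and 0.0482.

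Testes secrete testosterone with a surge around birth, so genes that respond to steroids were examined. The testosterone level of the pups at sampling was not available here, so a response to hormone present at that age was not tested. The 21 counted androgen-responsive genes had 11 above and 10 below 0, with a median of 0.013 and 0 at an unadjusted limma p under 0.05. Fkbp5, a chaperone partner induced by androgen and glucocorticoid receptors, had 1449, 1353, 1385 and 1155 against 1351, 1391 and 1342, and the 95% confidence interval of its ratio was 0.843 to 1.13. Steroid receptors and coregulators had a median of 0.0016 over 8 genes, estrogen-responsive genes -0.0068 over 12 and steroid synthesis genes -0.057 over 10, which became 0.014 without XXM arrays 6 and 10. Esr1, the estrogen receptor alpha, had 263, 268, 316 and 300.5 against 292, 279 and 289. Glucocorticoid-responsive genes, 14 counted, had 0.022. Their 1 gene at an unadjusted limma p under 0.05 was Lcn2, lipocalin 2, beside 0.223% of all genes. It had -0.22 ± 0.098 (SE) with an unadjusted limma p of 0.0472.

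The study followed several genes with other assays. From its arrays of all males and all females it named Ccn6 and Glcci1 as higher in females. Its quantitative RT-PCR in new animals found the difference for Ccn6 but not for Glcci1. Ccn6, also called Wisp3, a matricellular protein, had 304, 268, 253 and 309 on XXM arrays and 298, 330.1 and 337 on XXF arrays. The groups overlapped, and the log2 difference was -0.19 ± 0.095 (SE) with an unadjusted limma p of 0.0732. Glcci1, a glucocorticoid-induced transcript, had 5127, 5643, 5083 and 5208 against 5061, 4776 and 5576, a log2 difference of 0.037 ± 0.082 (SE) and an interval of the ratio from 0.906 to 1.16. That sign is opposite to the one the study named from all males and all females. The interval spans both directions, and this contrast compares XX arrays only. On the sphingosine-1-phosphate axis, whose gradient leads T cells out of the thymus, 16 genes were counted, with 5 above and 11 below 0 and a median of -0.023. Sphk1, the kinase, had 409.8, 419, 469 and 454 against 398, 425 and 415 and a difference of 0.083. Sgpl1, the lyase that breaks the lipid down, had 3156, 3198, 3016 and 2910.3 against 3574, 3142 and 3313 and -0.12. S1pr1, the receptor on emigrating T cells, had 759, 694, 766 and 769.9 against 817, 735 and 783. The paper measured this receptor as surface protein on thymocytes by flow cytometry, which the RNA values here do not match in kind. Sphk1, Sgpl1 and S1pr1 all overlapped between the groups.

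Insertion of a transgene could affect genes near it, and in FCG mice the Sry transgene is known to lie on chromosome 3. Of the 669 genes counted on chromosome 3, 0 passed adjustment. An unadjusted limma p under 0.05 was found for 2 of the 669, Plppr4 and Gng5, beside 0.352% of all genes. The XXM and XXF arrays did not overlap for 13 of the 669 (1.94%), 6 with XXM above and 7 with XXM below, against 1.16% over all genes. Plppr4, a membrane protein related to lipid phosphatases, had 339, 327, 364 and 353 against 317, 307 and 311, with XXM above throughout. Its log2 difference of 0.15 became 0.096 without XXM arrays 6 and 10. Gng5 went the other way, with 576, 615.1, 532 and 544 against 614.8, 641 and 651, and overlapped. Its difference of -0.17 became -0.095 without those arrays.

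The same contrast on the XY background used other arrays, 2 of XYM and 3 of XYF. No gene differed in its response between the backgrounds after adjustment in limma: 0 of 13917 passed, and 68 (0.489%) had an unadjusted p under 0.05 for the difference of the contrasts. With the array sets as a block these were 623, again with 0 after adjustment. Sry had a log2 difference of 2.49 there, and the background difference of -0.031 had an unadjusted limma p of 0.860. H60b had -0.18 on the XY background, Cd7 -0.28, Pink1 0.07 and Ifit1 -0.11, all with the sign they had on the XX background. These genes are examples, with no count over all genes of low p. A sign below 0 was the more common there, as given below for all genes. Retnla had the other sign there, with 370.0 and 301 on XYM arrays against 293, 196 and 267 on XYF arrays, and an unadjusted limma p of 0.00393 for the background difference. So did Efcab8, with 258 and 253 against 298, 279.7 and 294 and an unadjusted limma p of 0.00456. Both genes were named for a low p in the XX contrast, whose values enter the background difference. These p-values are therefore no separate test, and both genes had an adjusted p of 0.999989 for that difference. On the XY background 8289 of the 13917 genes were below 0, with a median of -0.025 over all of them. The interferon-stimulated genes had a median of -0.069 there, with 12 of 16 below 0, and heart muscle genes 0.082. Mesothelium genes had the opposite sign there, 0.30 with 8 of 9 above 0. The summed signal of the 12 measured genes was 3860 on XYM array 1 but 2697 on XYM array 9. On XYF arrays 4, 8 and 12 it was 2538, 2944 and 2841. For the background difference 4 of the 9 had an unadjusted limma p under 0.05, beside 0.489% of all genes, and 0 passed adjustment. This list was chosen with its XX values in view, and those values enter the background difference.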

How the data were processed

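RNA of day 7 thymic epithelium/stroma was measured on 12 Affymetrix MoGene 1.0 ST arrays, of which 7 entered the comparison. The deposited values are linear intensities of 35556 probe sets, 1 column per array. How the authors summarised the probes is uncertain, since Affymetrix Expression Console 1.1 with PLIER stands in the submitters' processing notes and RMA with quantile normalization in the methods. The values were taken as they are. The number of arrays limits the precision.

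Probe sets were named from the array annotation, updated through RefSeq (GRCm38.p6): 21789 had 1 symbol, 1621 several and 12146 none. Autosomal probe sets with 1 symbol and a mean signal of at least 200 over the 7 arrays gave 13917 genes, the brightest probe set standing for the 738 genes with several. A model of 4 genotype means was fitted to the log2 intensities of all 12 arrays (lmFit and eBayes of limma 3.58.1, R 4.3.3), with Benjamini-Hochberg adjustment across every probe set. Scripts ran in Python 3.11.15 with pandas 2.3.3, numpy 2.4.6 and scipy 1.17.1, were tested on simulated data, and drew figures with matplotlib 3.10.9. Permutation tests were exact and two-sided.

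Named genes were Sry, Xist and Eif2s3y; per direction the 12 with the lowest unadjusted p and the 6 with the largest difference among genes without overlap; Ccn6 and Glcci1; and from each list up to 4 of the brightest and 4 with the lowest p. No probe set was named Ddx3y, which the rule also held. The heart muscle and mesothelium genes, Foxn1, Psmb11, Themis, Slc15a2, Alb, Pth, Amh, Prf1, Klrb1c, Ncr1, S1pr1, Esr1, Actn2 and Gng5 lie outside this rule and were picked with their values in view. The members, lists and tests were chosen with earlier results of these data known. Alternatives were array sets as a block, the 7 arrays alone, renewed quantile normalization, median centring, an offset of 16, trend and robust moderation, no moderation, array weights, signal limits of 100 and 500, the mean over probe sets, adjustment over autosomal probe sets and leaving out arrays; leaving out XXM arrays 6 and 10 together was added after the data were seen. Cyp19a1 and Gapdh were not analysed here.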

Additional observations from a re-analysis of the deposited data

Results flagged for a closer look

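In 7 of 86 measures examined, 1 of the 4 XXM arrays lay far from the other 3 by Dixon's ratio (above 0.829); chance flags about 1 in 20 groups, and the heart genes had been chosen for this. On XXM array 10 these were Myh6 (signal 9909), Nppa (10150.4), Myl7, the atrial light chain (4321), Tbx20, a cardiac transcription factor (2599.7), and Srl (1161), all far above the other XXM arrays. On XXM array 6, Mx2 was low, at 168, and the summed signal of the 9 measured parathyroid and thyroid genes was high, at 3632. The origin of the RNA behind these values was not tested.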

How the results depend on the processing

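Sry kept its direction and its adjusted call in all 18 alternatives, at log2 differences between 2.37 and 2.57. The count of autosomal genes past an adjusted p of 0.05 was 0 throughout, for XXM minus XXF and for the difference between backgrounds. The 49 genes at an unadjusted limma p under 0.05 became 280 with array sets as a block, 94 with the 7 arrays alone and that block, 79 after renewed quantile normalization, 108 without moderation, 74 with array weights, 79 with a signal limit of 100, 16 with a limit of 500 and 15 without XXM arrays 6 and 10. Leaving out 1 array gave 17 to 233, the highest without XXM array 2 and the lowest without XXM array 6; it was 83 without XXM array 5 and 26 without XXF array 3. The 161 genes without overlap became 59 with a limit of 500 and 1276 without XXM arrays 6 and 10; with any 1 of the 7 arrays left out there were 277 to 952, fewer arrays making separation easier. Genes higher by a factor of 1.2 numbered 48 to 226 with 1 array left out, lowest without XXM array 10 and highest without XXM array 2, and 26 without XXM arrays 6 and 10. Genes lower by that factor numbered 26 to 110, and were 110 without XXF array 11, 93 without XXM array 2, 71 without XXF array 7 and 57 without XXM array 5. For the other changes the cause was not tested.

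Among the genes of lowest p or largest separate difference, Xist, Eif2s3y, Ccn6 and Glcci1, 31 in all, 557 of 558 values kept direction and call; they were mostly chosen for separation. Over all 251 named autosomal genes that were counted, 308 of 4518 values changed sign, in 119 genes, 68 of them without XXM arrays 6 and 10, and 0 values passed adjustment. Glcci1 ran from -0.014 without XXF array 7 to 0.098 without XXF array 11. List medians moved by more than the spread between arrays in 8 of 684 values. No paired analysis was possible because XXM and XXF share no replicate number; the labels number arrays across genotypes.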

Other observations

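Slc15a2, a peptide transporter, varied widely within groups, with signals of 871, 1308, 1068 and 1212 on XXM arrays 2, 5, 6 and 10, of 326, 423 and 1484 on XXF arrays 3, 7 and 11, and of 48.5 on XYF array 4. It was chosen after its values were seen. Alb, the liver plasma protein, was highest on XXF arrays 3 and 7, at 353 and 292, against 145 to 211 on the other XX arrays, the same arrays that were high in mesothelium genes. Pth, parathyroid hormone, ran from 118 on XXM array 10 to 551 on XXM array 6 with 446, 329 and 148 on XXF arrays 3, 7 and 11. Krt19, a keratin of simple epithelia, lay under the signal limit, with 163, 179, 167 and 163 on XXM arrays and 234, 233 and 191 on XXF arrays, without overlap; it was on the mesothelium list, and its log2 difference was -0.38. These values are given with no test.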
